A study of Solanum lycopersicum with 27 samples.

Results

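In shoots of tomato seedlings, 71 nuclear genes of 20378 in the deposited shoot table (20545 features with plastid and mitochondrial genes) had changed by 3 h of a morning treatment to a like extent in plants moved to 4°C and in plants kept at 24°C. They were chosen by group means of the deposited values. A gene was taken when its mean at 3 h was at least 2-fold its mean at the start (T0, replicates 1 to 3) in both temperatures with both 3 h means at least 100, or at most 0.5 of it in both with a T0 mean of at least 100, and when the ratio of the 4°C mean to the 24°C mean lay between 0.67 and 1.5. Of the 71 genes, 7 were higher and 64 were lower at 3 h. The choice itself used the shoot libraries of 3 h and T0 replicates 1 to 3, so those values are given as a description without a test. The libraries that the rule did not use are the shoot libraries of 30 min, T0 replicates 4 to 6 and all root libraries. The study compared roots and shoots of the same plants, so the root libraries do not stand for other seedlings.

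Many plant transcripts rise and fall with the time of day. The circadian clock, a set of transcription factors that repress and activate each other in sequence, drives much of this change, and light and temperature set its phase. Chilling is known to damp such daily changes in several plants. The plants of both temperatures were also placed in new containers at the start of the treatment, and time of day and this handling cannot be told apart as sources of a change that both shared.

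All plants were seedlings of the tomato cultivar M82, 18 days old and grown in hydroponics, and each replicate was a pool of 4 seedlings. Shoots were sampled after 30 min and 3 h at 4°C, after 30 min and 3 h at 24°C (3 replicates each) and at T0 (6 replicates), and roots after 3 h at 4°C, after 3 h at 24°C and at T0 (3 replicates each). The treatment began 2.5 h after lights on, T0 plants were taken at 24°C just before it, and all plants stayed in the light. The sample labels name no sequencing batch. A set of T0 shoot samples was sequenced with the 3 h samples and another with the 30 min samples, and these were taken to be T0 replicates 1 to 3 and T0 replicates 4 to 6, an inference from the flow cells and read lengths listed for the libraries.

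The values were normalised counts that sum to nearly the same total in every library of an organ, so they hold no sequencing depth. The plastid and mitochondrial genes took 6.75 to 6.80% of the total in shoots after 3 h at 4°C, 0.27 to 0.34% after 3 h at 24°C, 0.42 to 0.75% in T0 replicates 1 to 3 and 2.21 to 2.46% in T0 replicates 4 to 6. In roots their share was 0.13 to 0.18%, below that of every shoot library. Over the 14358 nuclear genes with a T0 mean of at least 100, the median log2 ratio of the 3 h means at 4°C and 24°C was -0.27. Over the 71 genes it was 0.01, a value that the rule itself held near 0 by its limits on this ratio. When the libraries were rescaled by median ratios over nuclear genes, these medians were -0.001 (over 14133 genes) and 0.27. On that scale 61 genes met the rule, and 43 of these were among the 71. In pooled whole organs, a fall in a transcript through fewer cells of a type and one through less RNA per cell cannot be told apart.

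Of the 20378 nuclear genes, fewer changed in both temperatures than in 1 of them, and the size of the overlap was not tested. At least 2-fold above T0 at 3 h were 237 genes at 4°C and 500 genes at 24°C, and 18 genes were so in both. Of these 18 genes, 8 had a ratio of 4°C to 24°C under 0.67 and 3 had one over 1.5. At most 0.5 of T0 were 559 genes at 4°C and 929 genes at 24°C, and 115 genes were so in both, of which 16 had a ratio under 0.67 and 35 had one over 1.5.

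**Figure D1:**
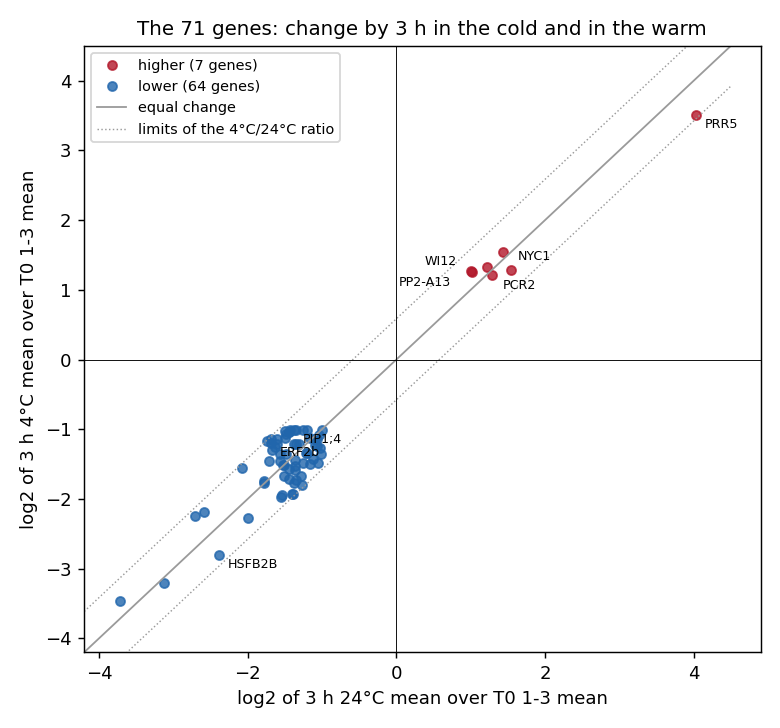
Change of each of the 71 genes by 3 h, as the log2 ratio of the 3 h 4°C mean (vertical axis) and of the 3 h 24°C mean (horizontal axis) to the mean of T0 replicates 1 to 3. Each point is 1 gene, red for the 7 higher and blue for the 64 lower genes, and dotted lines are the limits of the ratio of 4°C to 24°C. PRR5 lies far from the other higher genes, and most lower genes lie close to the 2-fold limit.

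The 7 higher genes had ratios to T0 between 2.32 and 11.3 at 4°C and between 2.00 and 16.3 at 24°C, with medians of 2.43 and 2.44. The 64 lower genes had ratios between 0.0906 and 0.499 at 4°C (median 0.391) and between 0.0757 and 0.498 at 24°C (median 0.370). Of the lower genes, 32 had a higher mean at 4°C than at 24°C and 32 a lower one, and 5 were at most 0.25 of T0 in both temperatures. The lower genes were mostly of moderate level, with a median T0 mean of 307 and 5 genes with a T0 mean of at least 1000.

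Several genes sat close to the limits of the rule. Just inside the fold limit were PP2-A13 (ratio 2.00 at 24°C) and WI12 (2.02 at 24°C) among the higher genes, while Solyc04g071890 and Solyc07g062160 were left out at ratios of 1.85 at 4°C. Among the lower genes Solyc12g009270 (0.499 at 4°C) and Solyc12g013620 (0.498 at 24°C) were just inside, while Solyc05g006510 (0.501 at 4°C) and Solyc03g093180 (0.502 at 4°C) were just outside. The T0 mean was 103 for Solyc02g084167 and 108 for Solyc04g078840, inside the limit on level, and 97.1 for Solyc00g052940 and 96.4 for Solyc01g095240, outside it. For the higher genes that limit kept Solyc02g091700 (lower 3 h mean 146) and Solyc03g093410 (226) and left out Solyc02g065410 (71.6) and Solyc09g097840 (60.4). The ratio of 4°C to 24°C was 0.687 for Solyc11g066080, 0.688 for Solyc02g083785 and 0.695 for PRR5, inside its lower limit, and 0.634 for Solyc11g039950, 0.617 for Solyc05g051240 and 0.610 for Solyc04g016200, outside it. At the upper limit it was 1.5 for Solyc03g116630 and 1.47 for Solyc07g062130, inside, and 1.51 for Solyc12g006370, 1.54 for Solyc02g089010 and 1.56 for Solyc06g076850, outside.

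Names were at hand for 8 of the 71 genes, all of them names of Arabidopsis matches or product names in the study's tables, and 16 of the 71 were listed there at all. Those tables list genes that differed between temperatures here or in other cold experiments, so few of the genes followed here are in them by construction. The other genes are given by their IDs, with no role.

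The largest change was that of PRR5 (Solyc03g081240, on chromosome 3 by its ID), a pseudo-response regulator of the circadian clock that represses morning genes in Arabidopsis. PRR5 had 656, 809 and 872 in shoots after 3 h at 4°C and 1182, 1096 and 1085 after 3 h at 24°C, against 74.1, 72.8 and 59.4 in T0 replicates 1 to 3. Every 3 h library was far above every T0 library, and the 3 libraries at 4°C were all below the 3 at 24°C. Its ratios to T0 were 11.3 at 4°C and 16.3 at 24°C. T0 replicates 4 to 6, which the rule did not use, held 66.3, 53.3 and 75.1, within the range of the other T0 libraries or close to it.

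NYC1 (Solyc07g024000), a chlorophyll b reductase that starts the breakdown of chlorophyll b, had 1190.5, 1327 and 1222 in shoots after 3 h at 4°C and 1485, 1517 and 1487 after 3 h at 24°C, against 559.7, 515 and 466 in T0 replicates 1 to 3. The groups did not overlap, and the cold libraries again lay below the warm ones. The median nuclear gene also lay lower at 4°C on this scale (log2 ratio -0.27), so this order was not particular to NYC1 or PRR5. WI12 (Solyc06g048820), a wound-induced and senescence-associated gene in Arabidopsis, had 1474, 1652 and 1637 at 4°C and 1405, 1258 and 1369 at 24°C, against 730.4, 603 and 659 at T0. Here the cold libraries were the highest. PP2-A13 (Solyc12g056410), an F-box protein with a phloem lectin domain, had 1738, 1879 and 1500.4 at 4°C and 1589, 1435 and 1243 at 24°C, against 497, 498 and 1137 at T0, so that T0 replicate 3 lay much closer to the 3 h libraries than the other T0 replicates did. PCR2 (Solyc01g005470), a membrane protein that exports zinc in Arabidopsis, had 245, 317 and 241 at 4°C and 275, 309.6 and 261 at 24°C, against 132, 101 and 112 at T0, with no overlap between 3 h and T0.

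The remaining higher genes, Solyc03g093410 and Solyc02g091700, had no name. Solyc03g093410 had 217, 268 and 243 in shoots after 3 h at 4°C and 250.2, 211 and 216 after 3 h at 24°C, against 95.0, 86.4 and 67.8 at T0. Solyc02g091700 had 119.7, 157 and 195 at 4°C and 108, 146 and 185 at 24°C, against 74.5, 59.0 and 55.0 at T0. In both genes the 4°C and 24°C libraries overlapped and lay above every T0 library.

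**Figure D2:**
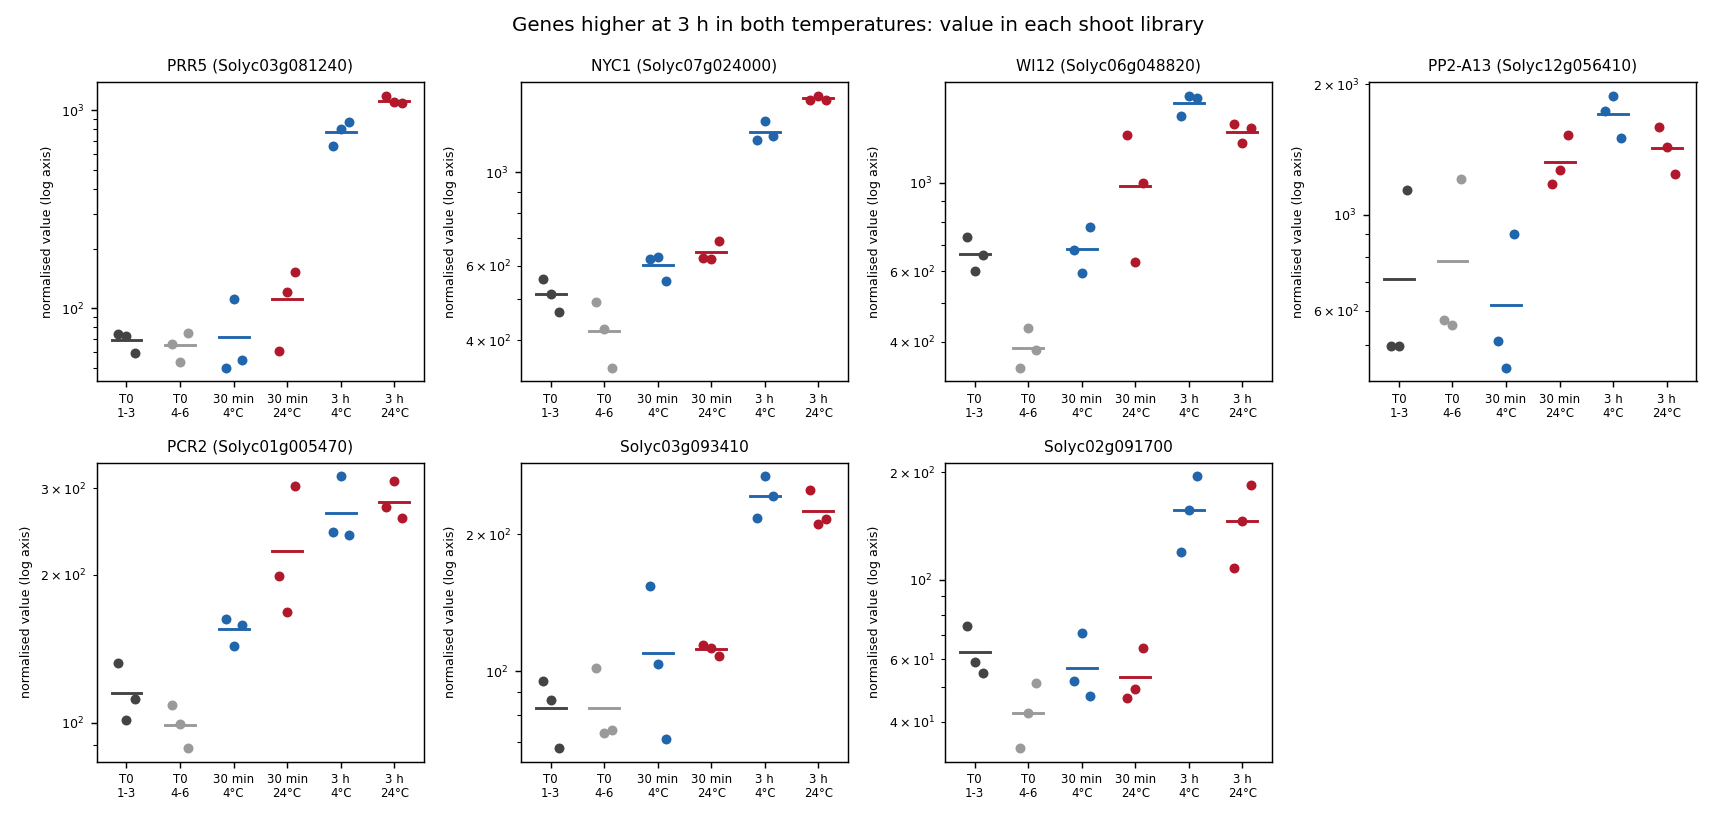
Normalised value (log axis) of the 7 higher genes in each shoot library, by group. Points are single libraries and lines are group means, with T0 in dark and light grey, 4°C in blue and 24°C in red. At 3 h all libraries lie above all T0 libraries in each panel, while at 30 min PRR5 still lies between 50.1 and 153.

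Among the lower genes, the named ones were a pair of transcription factors and an aquaporin. HSFB2B (Solyc08g080540), a class B heat stress factor that acts as a repressor in Arabidopsis, had 46.4, 30.0 and 36.8 in shoots after 3 h at 4°C and 38.5, 56.9 and 55.9 after 3 h at 24°C, against 298, 271 and 222 in T0 replicates 1 to 3. Its ratios to T0 were 0.143 at 4°C and 0.191 at 24°C. It was thus among the 5 genes at or below 0.25 of T0 in both temperatures.

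ERF2b (Solyc08g082210), named as an ethylene-responsive transcription factor, had 139, 171 and 183 at 4°C and 115, 112 and 124 at 24°C, against 462, 416 and 252 at T0. Each cold library was above each warm one, and both groups were below T0. PIP1;4 (Solyc10g054820), a plasma membrane aquaporin that lets water pass between cells, had 276, 241 and 267 at 4°C and 234, 226 and 148 at 24°C, against 517, 401 and 663 at T0. Aquaporins of this class are close copies of each other, and how reads shared between copies were counted is not known.

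The lower genes with the largest falls had no name. Solyc07g041620 had 22.4, 16.2 and 11.6 at 4°C and 23.7, 13.3 and 4.97 at 24°C, against 249, 228 and 77.1 at T0. Solyc12g098230 had 54.9, 62.7 and 33.8 at 4°C and 57.7, 46.6 and 56.0 at 24°C, against 468, 531 and 397 at T0. In both genes the 3 h libraries of the 2 temperatures overlapped and none reached the lowest T0 library.

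**Figure D3:**
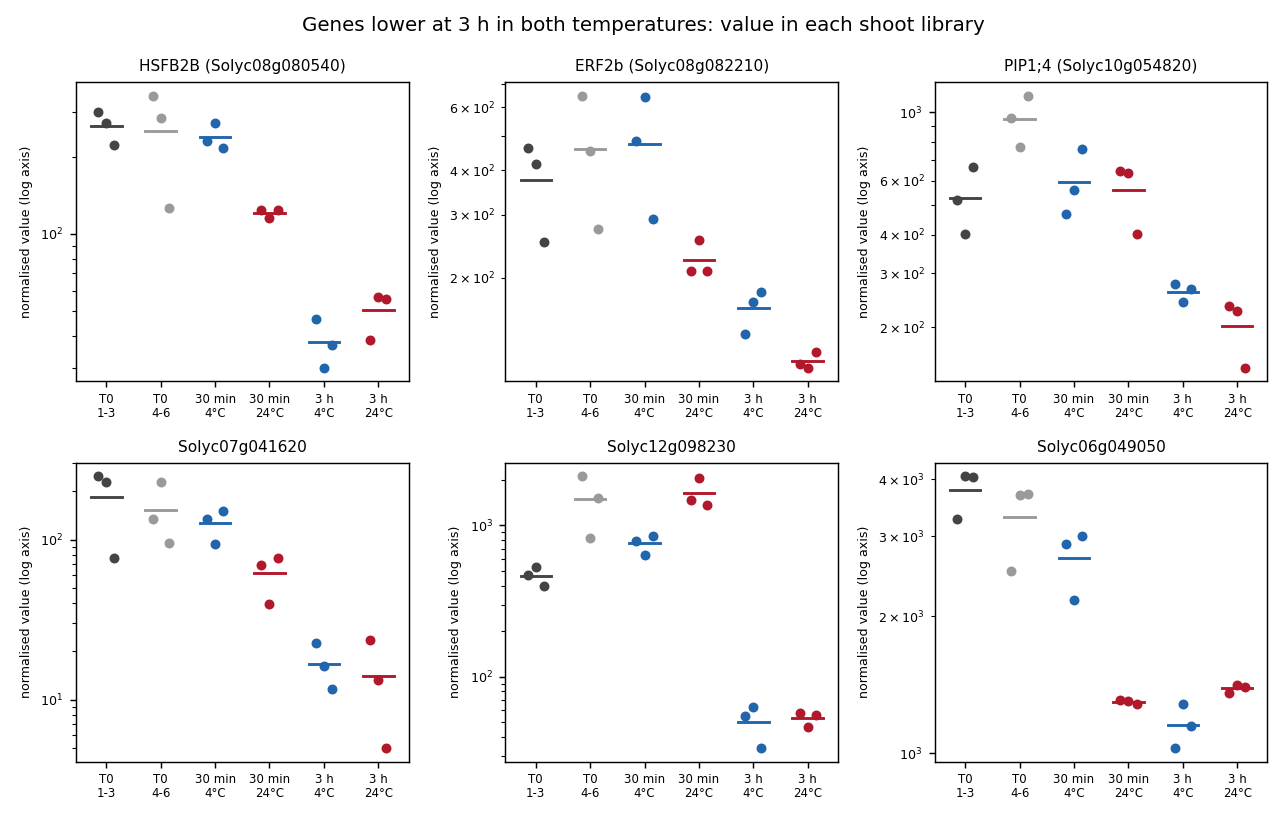
Normalised value (log axis) of 6 of the 64 lower genes in each shoot library, by group, with points for libraries and lines for group means (T0 in greys, 4°C in blue, 24°C in red). HSFB2B, ERF2b and Solyc06g049050, the last chosen after its values were seen, are near T0 at 30 min at 4°C and lower at 30 min at 24°C, and Solyc12g098230 is above T0 replicates 1 to 3 at 30 min.

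T0 replicates 4 to 6, taken to be from the other sequencing batch, gave a measure of how far the choice rested on 3 libraries. All 7 higher genes had every one of T0 replicates 4 to 6 below every 3 h library, a pattern held by 19.3% of nuclear genes, and 6 of 7 were at least 2-fold above that T0 mean in both temperatures (2.74% of nuclear genes). PP2-A13 was the exception, with a ratio of 1.83 at 24°C. Of the 64 lower genes, 54 had every one of T0 replicates 4 to 6 above every 3 h library (12.6% of nuclear genes), and 43 were at most 0.5 of that T0 mean in both temperatures (3.53%). Of the 64 lower genes, 59 were below that T0 mean in both temperatures, with no share over all features at hand. Others lay above it, with ratios up to 1.95 at 4°C and 1.45 at 24°C. These shares and counts are given as a description, since the 3 h libraries are those of the rule.

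The T0 means of the batches were within 1.5-fold of each other for 6 of 7 higher and 40 of 64 lower genes. Of the lower genes, 9 were at least 2-fold higher in T0 replicates 4 to 6 than in 1 to 3 and 5 were at most 0.5 of it. The widest gaps seen were in Solyc00g068980 and Solyc00g010525, both chosen after their values were seen. Solyc00g068980 had 1232, 1099.7 and 1795 in T0 replicates 4 to 6 against 188, 418 and 167 in T0 replicates 1 to 3. For Solyc00g010525 these were 4525, 4416 and 6165 against 412, 1889 and 429. At 3 h Solyc00g010525 had 506, 348 and 496 at 4°C and 357, 325 and 502 at 24°C, which overlapped T0 replicates 1 and 3. Its mean of T0 replicates 1 to 3 (910) rested on replicate 2. With T0 replicates 4 to 6 in place of 1 to 3, 326 genes met the rule, 124 higher and 202 lower, and 48 of the 71 were among them. With all 6 T0 libraries, 117 genes met it, and 55 of the 71 were among them.

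The T0 libraries were not alike among the lower genes. T0 replicate 3 was the lowest of T0 replicates 1 to 3 in 38 of the 64 lower genes (59.4%), against 29% of the 14358 nuclear genes with a T0 mean of at least 100. It was the highest in 19 (29.7%, against 49.4%). T0 replicates 1 to 3 are libraries the rule used. Of T0 replicates 4 to 6, replicate 5 was the lowest in 30 of the 64 (46.9%, against 33%) and replicate 6 in 27 (42.2%, against 27.9%). Without T0 replicate 3, 102 genes met the rule, of which 60 were among the 71. In roots, T0 replicate 3 was the lowest T0 library in 29 of 54 of these genes (53.7%), against 29.1% of all 16855 root genes with a T0 mean of at least 100. It was the highest in 22 (40.7%, against 55.6%). The part of these libraries in the results was not tested.

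At 30 min, before the time the rule used, few of the 71 genes passed the test for a change from T0 replicates 4 to 6. At 4°C, 2 of the 7 higher genes had risen, where 1.93% of all 20535 features tested had risen, and 4 of the 64 lower genes had fallen (6.25%), where 5.17% of all features had fallen. At 24°C, 3 of the 7 higher genes had risen (3.96% of all features) and 10 of the 64 lower genes had fallen (15.6%, against 4.52% of all features). A gene was said to have changed when the adjusted p of limma (Benjamini-Hochberg over all features) was under 0.01. An unadjusted p of limma under 0.05 was seen in 24 of the 71 genes at 4°C and 29 at 24°C. Of these, 1 at 4°C and 3 at 24°C went against the direction of the rule. No share over all features was at hand for these counts. In either direction, 7.1% of all features had changed at 4°C and 8.49% at 24°C. Shares over all features, here and for roots, include genes below the minimum mean of the rule. A share at a like level was not at hand. The counts at 4°C and 24°C share their T0 libraries and are given side by side.

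The median log2 difference of the 7 higher genes from T0 at 30 min was 0.41 at 4°C and 0.69 at 24°C, and that of the 64 lower genes was -0.21 at 4°C and -0.35 at 24°C. Over all features the medians were -0.03 at 4°C and 0.02 at 24°C. All 7 higher genes had a positive difference at 24°C and 6 of 7 had one at 4°C, while 50 of 64 lower genes had a negative one at 24°C and 42 of 64 at 4°C. The count of genes that had changed in the direction of the rule at 4°C was 6, and it was 2 without 4°C replicate 1, 3 with only the 30 min libraries and T0 replicates 4 to 6 in the fit, and 3 against all 6 T0 libraries. The count at 24°C was 13, and 8 in the smaller fit.

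Of the higher genes, WI12 and NYC1 rose at 30 min in both temperatures. WI12 had 679, 595 and 777 at 4°C and 1321, 632 and 1000.5 at 24°C, against 344, 432 and 380.3 in T0 replicates 4 to 6, a log2 difference of 0.82 ± 0.18 (SE) at 4°C (adjusted p = 0.00407) and 1.29 ± 0.18 at 24°C (adjusted p = 7.6e-05, limma). All 6 treated libraries were above all 3 T0 libraries of that batch, but the T0 replicates 1 to 3 (603 to 730) lay among the cold libraries, and against all 6 T0 libraries the log2 difference was 0.43 (adjusted p = 0.25) at 4°C and 0.90 (adjusted p = 0.0116) at 24°C. At 4°C its adjusted p was 0.0173 without 4°C replicate 1, 0.0206 without 4°C replicate 3, 0.0239 without T0 replicate 4 and 0.0156 without T0 replicate 6, and 0.00186 to 0.25 over all alternatives.

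NYC1 had 624, 629 and 553 at 4°C and 626, 623 and 689 at 24°C, against 492, 425 and 344 in T0 replicates 4 to 6. The libraries of both temperatures overlapped with each other and lay above all of T0 replicates 4 to 6, with log2 differences from T0 of 0.53 ± 0.11 at 4°C (adjusted p = 0.00255) and 0.63 ± 0.11 at 24°C (adjusted p = 0.000541), and the 4°C and 24°C libraries differed by -0.10 ± 0.11 (adjusted p = 0.616). At 4°C its adjusted p was 0.0155 without 4°C replicate 1 and 0.0169 without T0 replicate 6, and 0.000652 to 0.0463 over all alternatives, the last against all 6 T0 libraries. At 24°C it was 0.0112 when the fit held just the 30 min and T0 replicates 4 to 6 libraries. PCR2 rose at 24°C, where it had 199, 168 and 303 against 109, 99.4 and 88.9 in T0 replicates 4 to 6 (log2 difference 1.12 ± 0.18, adjusted p = 0.000362). At 4°C PCR2 had 163, 144 and 158, a log2 difference of 0.64 ± 0.18 that did not pass (adjusted p = 0.0236).

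PRR5, the gene with the largest change at 3 h, had 50.1, 111 and 54.8 at 30 min at 4°C and 61.1, 121 and 153 at 24°C, against 66.3, 53.3 and 75.1 in T0 replicates 4 to 6. The groups overlapped, and neither temperature passed the test (log2 difference 0.06 ± 0.29 at 4°C, adjusted p = 0.916, and 0.69 ± 0.29 at 24°C, adjusted p = 0.109). PP2-A13 had 509, 443 and 904 at 4°C and 1173, 1268 and 1528 at 24°C, against 571, 557 and 1210.0 in T0 replicates 4 to 6. Its cold libraries lay below all warm ones, but the log2 difference between temperatures of -1.16 ± 0.31 did not pass (adjusted p = 0.0191), and it did without 4°C replicate 3 (-1.47, adjusted p = 0.00426, with 0.00426 to 0.0839 over all alternatives).

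Among the lower genes, Solyc00g010525, Solyc02g082630 and Solyc09g010530, named here after their values were seen, had fallen at 30 min at 4°C and at 24°C against the same T0 libraries. Solyc02g082630 had 44.8, 107 and 47.9 at 4°C and 74.7, 81.2 and 113 at 24°C, against 552, 358 and 254 in T0 replicates 4 to 6, a log2 difference of -2.57 ± 0.36 at 4°C (adjusted p = 8.3e-05) and -2.05 ± 0.36 at 24°C (adjusted p = 0.000682). Its T0 replicates 1 to 3 were lower, at 233, 244 and 92.5, so that T0 replicate 3 lay within the range of the 30 min libraries, and against all 6 T0 libraries the difference at 24°C was -1.51 (adjusted p = 0.0124). Solyc09g010530 had 515, 349 and 708 at 4°C and 519.7, 615 and 565 at 24°C, against 1045, 898 and 1409.6 in T0 replicates 4 to 6 (log2 difference -1.12 ± 0.23 at 4°C, adjusted p = 0.00264, and -0.96 ± 0.23 at 24°C, adjusted p = 0.0076). Its adjusted p at 4°C was 0.0114 without 4°C replicate 1, 0.0127 without 4°C replicate 2 and 0.0197 without T0 replicate 6, and at 24°C it was 0.0055 to 0.0392 over the alternatives, and 7 of 13 lost the call, among them those without T0 replicate 4, T0 replicate 6 or any 1 of the 24°C replicates. For Solyc00g010525 the log2 differences were -3.90 ± 0.45 at 4°C (adjusted p = 1.3e-05) and -2.89 ± 0.45 at 24°C (adjusted p = 0.000256), but its 30 min libraries, at 235 to 1134, overlapped T0 replicates 1 to 3, and against all 6 T0 libraries its adjusted p was 0.0323 at 4°C and 0.167 at 24°C.

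HSFB2B and ERF2b had lower values at 30 min at 24°C than at 4°C, but the differences did not pass the test. HSFB2B had 229.7, 269.8 and 217 at 30 min at 4°C and 124, 115 and 123 at 24°C, against 345, 283 and 126 in T0 replicates 4 to 6. The warm libraries lay below every cold library and every T0 library, with a log2 difference between temperatures of 0.97 ± 0.27 (adjusted p = 0.0259) and from T0 of -0.93 ± 0.27 at 24°C (adjusted p = 0.0252) and 0.04 ± 0.27 at 4°C (adjusted p = 0.948). Without T0 replicate 6 the fall at 24°C passed (-1.37, adjusted p = 0.000287, with 0.000287 to 0.142 over all alternatives), as it did against all 6 T0 libraries (-1.02, adjusted p = 0.00856).

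ERF2b had 484, 643 and 293 at 4°C and 208, 255 and 209 at 24°C, against 646, 453 and 274 in T0 replicates 4 to 6 (log2 difference between temperatures 1.01 ± 0.28, adjusted p = 0.0253). Its log2 difference from T0 at 24°C was -0.95 ± 0.28 (adjusted p = 0.0276), and it passed without T0 replicate 6 (-1.28, adjusted p = 0.004, with 0.004 to 0.152 over all alternatives). The difference between temperatures passed without 4°C replicate 3 (adjusted p = 0.00409, with 0.00409 to 0.119 over all alternatives). By 3 h both genes were below T0 in the cold as well. PIP1;4 had 467, 559 and 762 at 4°C and 644, 635 and 402 at 24°C, against 959, 774 and 1131 in T0 replicates 4 to 6. All its treated libraries were below all T0 libraries of that batch, but within the range of T0 replicates 1 to 3 or close to it, and the log2 differences of -0.69 ± 0.23 at 4°C (adjusted p = 0.0462) and -0.78 ± 0.23 at 24°C (adjusted p = 0.0224) did not pass.

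**Figure D4:**
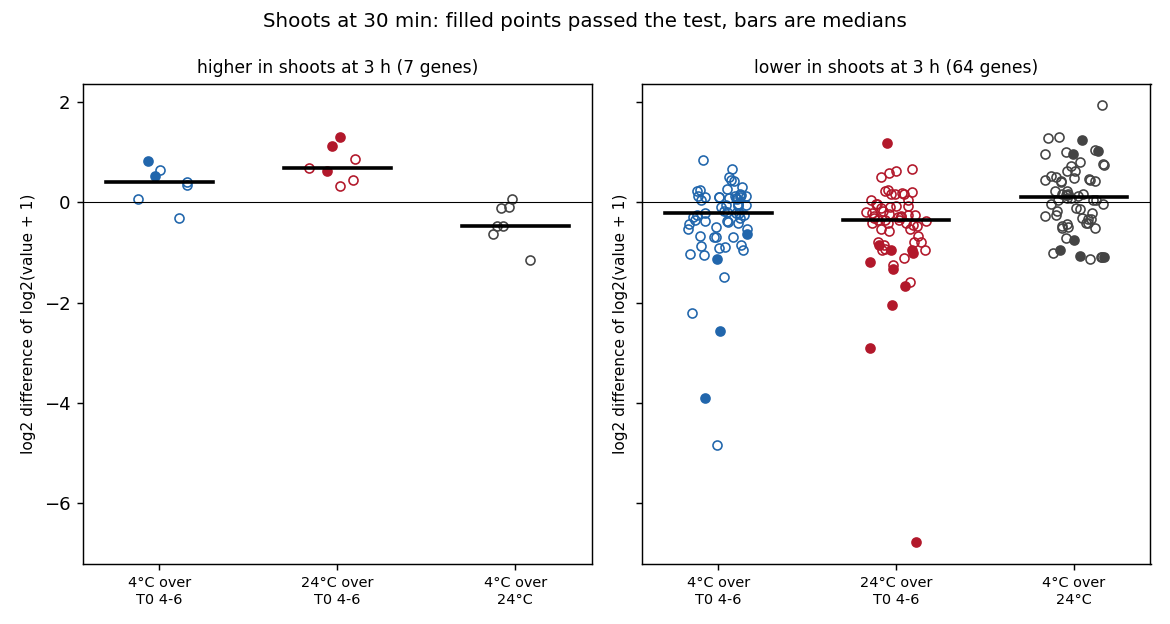
Log2 differences at 30 min in shoots of the 7 higher (left) and 64 lower genes (right), for 4°C over T0 replicates 4 to 6, 24°C over T0 replicates 4 to 6, and 4°C over 24°C. Points are genes, filled where the adjusted p was under 0.01, and bars are medians, which for the lower genes are -0.21, -0.35 and 0.11.

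Between temperatures at 30 min, none of the 7 higher genes differed by limma. An unadjusted p under 0.05 was seen in 4 of them, with no share over all features at hand. Of the 64 lower genes, 7 (10.9%) differed, where 6.07% of all features did. Of these 7 genes, 3 were higher (2.85% of all features) and 4 were lower (3.22%) at 4°C than at 24°C. The count over all 71 was 3 without 4°C replicate 1, 2 without 4°C replicate 2, 3 without 24°C replicate 1, and 3 with only the 30 min libraries and T0 replicates 4 to 6 in the fit.

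Solyc06g049050, chosen after its values were seen, had fallen by 30 min at 24°C and had not passed the test at 4°C, with 2877, 2168 and 3001 at 30 min at 4°C and 1312, 1305 and 1283 at 24°C, against 2511, 3700.0 and 3706 in T0 replicates 4 to 6. The warm libraries were already near the level of 3 h, which was 1028, 1283 and 1151 at 4°C and 1355, 1415 and 1397 at 24°C, while 2 of 3 cold libraries were still within the T0 range. The log2 difference at 30 min was 1.03 ± 0.14 between 4°C and 24°C (adjusted p = 4.4e-05), -1.32 ± 0.14 between 24°C and T0 (adjusted p = 4.8e-06) and -0.29 ± 0.14 between 4°C and T0 (adjusted p = 0.174).

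One lower gene went the other way at 30 min. Solyc02g088740 had 200.1, 221 and 233 at 4°C and 537, 481 and 379.8 at 24°C, against 311, 163 and 163 in T0 replicates 4 to 6. Its warm libraries were above all others (log2 difference 1.19 ± 0.23 from T0, adjusted p = 0.00143, and -1.08 ± 0.23 between 4°C and 24°C, adjusted p = 0.00356). The rise had an adjusted p of 0.0112 without 24°C replicate 1, and the difference between temperatures had 0.0195 without 4°C replicate 1, 0.0109 without 4°C replicate 2, 0.0228 without 24°C replicate 1 and 0.0170 without 24°C replicate 2, and 0.00319 to 0.0228 over all alternatives. At 3 h it was below T0 in both temperatures, with 93.6, 113 and 96.6 at 4°C and 70.4, 108 and 119 at 24°C, against 247, 224 and 193 in T0 replicates 1 to 3.

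In roots, which the rule did not use, 61 of the 71 genes were measured, all 7 higher and 54 of the 64 lower ones. After 3 h at 4°C, 1 of the 7 higher genes had risen, where 1.73% of all 20680 features had risen, and 11 of the 54 lower genes had fallen (20.4%), where 3.06% of all features had fallen. None of the 61 passed limma in the other direction at 4°C. There, 6 had an unadjusted p under 0.05, with no share over all features at hand. After 3 h at 24°C, 3 of the 7 higher genes had risen (23.9% of all features) and 3 had fallen (16.2% of all features), and 22 of the 54 lower genes had fallen (40.7%) while 7 had risen (13%). In either direction, 4.79% of all root features had changed at 4°C and 40.1% at 24°C. All 3 root libraries lay on the other side of all root T0 libraries, against the direction in shoots, in 2 of the 7 higher genes at 4°C (18.5% of all root features lay below) and 3 of 7 at 24°C (24.2%), and in 5 of the 54 lower genes at 4°C (16.8% of all root features lay above) and 10 of 54 at 24°C (37.3%).

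The median log2 difference of the lower genes from T0 in roots was -0.50 at 4°C and -0.47 at 24°C, beside -0.01 and 0.10 over all features. That of the higher genes was -0.05 at 4°C and 0.61 at 24°C. The count at 4°C in the direction of the rule was 12 over both sets, and it was 7 without 4°C replicate 1, without 4°C replicate 2, without T0 replicate 1 or without T0 replicate 2, 24 without T0 replicate 3, and 6 when the fit held no other root library. Between 4°C and 24°C, 32 of the 61 genes differed in roots (52.5%), where 46% of all features did, with 17 higher (18% of all features) and 15 lower (28%) at 4°C.

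PRR5 was the one higher gene that rose in roots in both temperatures. It had 838, 948 and 1053 at 4°C and 1385, 1249 and 1133 at 24°C, against 337, 372 and 323 in root T0, with no overlap between groups. The log2 difference from T0 was 1.45 ± 0.11 at 4°C (adjusted p = 7.2e-05) and 1.86 ± 0.11 at 24°C (adjusted p = 1.3e-06). As in shoots, the cold libraries were below the warm ones, by a log2 difference of -0.41 ± 0.11 (adjusted p = 0.00897) that became -0.30 (adjusted p = 0.039) after rescaling over nuclear genes. Its adjusted p was 0.0381 without 4°C replicate 1, 0.0272 without 4°C replicate 2, 0.0374 without 24°C replicate 1 and 0.0284 without 24°C replicate 2, and 0.00631 to 0.039 over all alternatives.

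The other named higher genes took different courses in roots. NYC1 had 1953, 1954 and 2428 at 4°C and 1014, 1056 and 1182 at 24°C, against 2236, 2432 and 1880.1 at T0, and so fell at 24°C (log2 difference -1.0 ± 0.12, adjusted p = 9.4e-05) and stayed within the T0 range in 3 of 3 cold libraries (-0.05 ± 0.12, adjusted p = 0.823). PP2-A13 had 4628, 4045 and 3145 at 4°C and 927, 915 and 936 at 24°C, against 5063, 4836 and 4245 at T0, a fall at 24°C of -2.34 ± 0.13 (adjusted p = 8.1e-07) with -0.27 ± 0.13 at 4°C (adjusted p = 0.18). In both genes the direction at 24°C in roots was opposite to that in shoots.

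WI12 had 3817, 3913 and 3638 at 4°C and 4746, 4651 and 5398 at 24°C, against 3172, 2785 and 3340.4 at T0. It rose at 24°C (log2 difference 0.67 ± 0.08, adjusted p = 0.000126), and at 4°C its libraries were all above T0 but the difference of 0.29 ± 0.08 did not pass (adjusted p = 0.0443). PCR2 had 646, 744 and 654 at 4°C and 838, 1048 and 1356 at 24°C, against 805, 799 and 516 at T0, and passed in neither temperature (-0.03 ± 0.20 at 4°C, adjusted p = 0.947, and 0.61 ± 0.20 at 24°C, adjusted p = 0.0275).

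The transcription factors among the lower genes fell in warm roots and did not pass the test in cold ones. HSFB2B had 299, 213 and 175 at 4°C and 67.5, 45.5 and 77.8 at 24°C, against 424, 409.9 and 827 at T0. The 3 groups did not overlap, with log2 differences from T0 of -1.23 ± 0.31 at 4°C, which did not pass (adjusted p = 0.0309), and -3.06 ± 0.31 at 24°C (adjusted p = 4.1e-05), and of 1.83 ± 0.31 between 4°C and 24°C (adjusted p = 0.000764).

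ERF2b had 682, 648 and 965 at 4°C and 86.3, 88.8 and 46.4 at 24°C, against 460.3, 582 and 213 at T0. All cold libraries were above T0, although the difference of 0.97 ± 0.37 did not pass (adjusted p = 0.117), and the warm libraries were far below it (-2.42 ± 0.37, adjusted p = 0.000489). The difference between 4°C and 24°C was 3.39 ± 0.37 (adjusted p = 5.2e-05). PIP1;4 is not in the root table used here.

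Solyc07g041620, the gene with the largest fall in shoots, fell in roots too, with 113, 121 and 55.5 at 4°C and 55.9, 54.8 and 67.1 at 24°C, against 309, 274 and 268 at T0 (log2 difference -1.62 ± 0.26 at 4°C, adjusted p = 0.00462, and -2.25 ± 0.26 at 24°C, adjusted p = 9.8e-05). The adjusted p at 4°C was 0.0112 without 4°C replicate 1, 0.0217 without T0 replicate 1 and 0.0148 without T0 replicate 2, and 0.00196 to 0.022 over all alternatives. Solyc11g068770, chosen after its values were seen, was at a high level in roots, with 2642, 2332 and 2266 at 4°C and 911, 993 and 1091 at 24°C, against 6547, 7193 and 4151 at T0 (-1.27 ± 0.18 at 4°C, adjusted p = 0.00219, and -2.54 ± 0.18 at 24°C, adjusted p = 4.2e-06). It fell in both temperatures, less at 4°C by 1.27 ± 0.18 (adjusted p = 0.000235). The adjusted p at 4°C was 0.014 without 4°C replicate 2 and 0.011 without T0 replicate 1, and 1.15e-05 to 0.0142 over all alternatives.

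**Figure D5:**
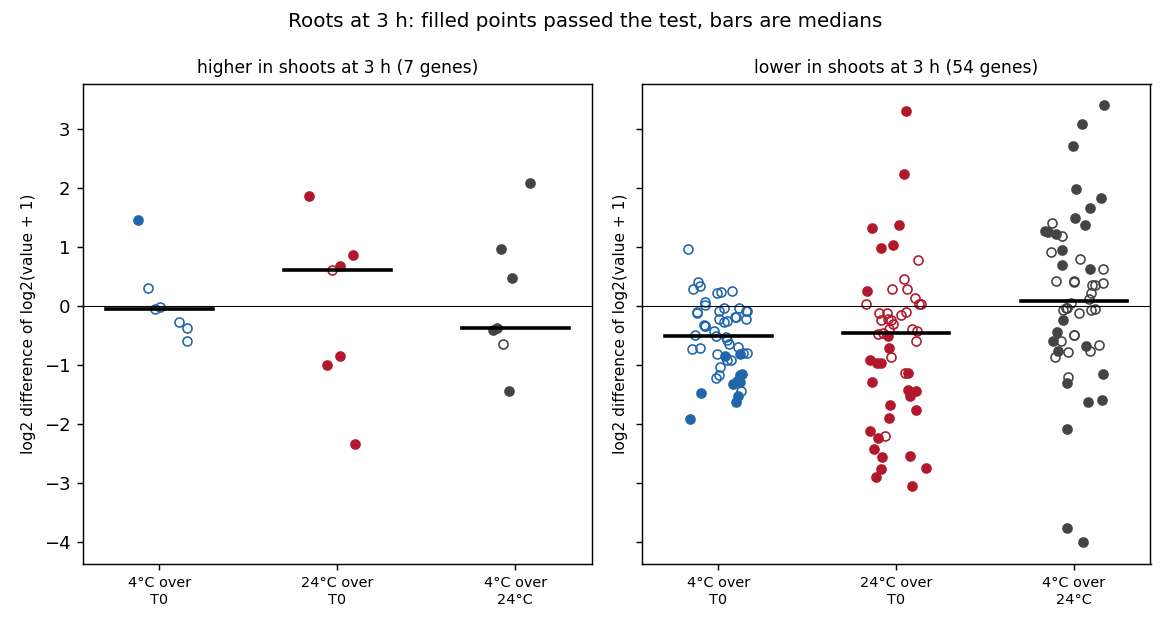
Log2 differences after 3 h in roots of the 7 higher (left) and the 54 measured lower genes (right), for 4°C over T0, 24°C over T0, and 4°C over 24°C. Points are genes, filled where the adjusted p was under 0.01, and bars are medians, which for the lower genes are -0.50, -0.47 and 0.09.

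When the same rule was applied to the root table, 8 genes were higher and 84 lower of 20599 nuclear genes. PRR5 was the only one of the 7 higher shoot genes among them, and Solyc02g088740, Solyc04g071870 and Solyc12g096350 were the only lower ones, all 3 chosen after their values were seen. Solyc02g088740 had 116, 134 and 74.0 in roots at 4°C and 179, 160.0 and 113 at 24°C, against 333, 427 and 436 at T0 (log2 difference -1.91 ± 0.24 at 4°C, adjusted p = 0.00129, and -1.42 ± 0.24 at 24°C, adjusted p = 0.000924). Solyc12g096350 had 183, 206 and 249.8 at 4°C and 169, 204 and 212 at 24°C, against 566, 537 and 349.7 at T0 (-1.16 ± 0.20 at 4°C, adjusted p = 0.00524, and -1.28 ± 0.20 at 24°C, adjusted p = 0.000453). At 4°C the adjusted p of Solyc12g096350 was 0.0256 without 4°C replicate 1, 0.0278 without 4°C replicate 2, 0.0232 without T0 replicate 1 and 0.0198 without T0 replicate 2, and 0.000272 to 0.0278 over all alternatives. Solyc04g071870 had 766, 687 and 675 at 4°C and 490.2, 551 and 631 at 24°C, against 2116, 2194 and 889 at T0, and its difference at 4°C of -1.18 ± 0.29 passed only without T0 replicate 3 (adjusted p = 0.0286 with it and 1.57e-05 without it, and 1.57e-05 to 0.0931 over all alternatives). None of these 3 genes passed between temperatures in roots.

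The rule fixed a like level of PRR5 in both temperatures at 3 h, so the values of other clock genes are given beside it as a description. None of the 10 clock genes that the study listed met the rule. In shoots at 3 h, 4 of them were higher and 4 lower at 4°C than at 24°C. Of all features, 9.63% were higher and 29.9% lower (39.5% in either direction). The clock genes TOC1 and LUX did not pass (adjusted p = 0.016 and 0.0143, limma). The study reported the listed genes as altered by chilling in shoots or roots of these samples, so their counts are not independent evidence. GI-1 (Solyc04g071990), an evening-phased regulator of the clock, averaged 601 at 4°C and 5181 at 24°C, against 562 at T0 (log2 difference between temperatures -3.10 ± 0.10, adjusted p = 3.9e-14). CCA1/LHY (Solyc10g005080), a morning repressor, averaged 3380 at 4°C and 519 at 24°C, against 5125 at T0 (2.7 ± 0.06, adjusted p = 6.7e-16). PRR7 (Solyc10g086000), of the same family as PRR5, averaged 379 at 4°C and 1338 at 24°C, against 607 at T0 (-1.82 ± 0.09, adjusted p = 5.3e-12), and PRR9 (Solyc10g005030) averaged 4003 at 4°C and 1625 at 24°C, against 1805 at T0 (1.30 ± 0.11, adjusted p = 2.0e-08).

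Of the transcription factors that the study listed as different between temperatures, 379 were measured in shoots, and HSFB2B and ERF2b were the only ones that met the rule. Of the other 10 heat stress factors in that list, 3 were higher and 2 lower at 4°C than at 24°C at 3 h in shoots, and of the other 58 factors of the AP2/ERF group 36 were higher and 9 lower. The list was drawn up on these samples, so its counts are not independent evidence of a direction.

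The 71 genes were spread over all 12 chromosomes by their IDs, with 12 on chromosome 2, 10 on chromosome 1, 8 on chromosome 3 and 2 on chromosome 5, and 3 had IDs not assigned to a chromosome. Of the 71 IDs, 10 (14.1%) did not end in 0, the form given to gene models inserted between older ones, against 6.76% of the other nuclear genes. These are descriptions of the list with no test.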

How the data were processed

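The deposited signal values are normalised gene counts made by the authors, who mapped reads with BBMap version 37.93 to the tomato genome (ITAG version 3.2) with its organelle genomes, counted them with featureCounts (Subread) and normalised them by TMM in edgeR, shoots and roots apart. For featureCounts and edgeR, versions are not given in the sources used here. The values are not whole, whole reads were not recovered, and they hold no depth. Read totals that the study lists were not used here; by them T0 replicates 1 to 3 and the roots were sequenced more deeply than the other shoot libraries. All 27 libraries were used, and 0 columns were left out. Groups came from the sample labels. Sequencing batches came from the study, with the replicate numbers of T0 inferred.

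Features that reached 10 in 3 or more libraries of an organ were tested on log2(value + 1) with limma version 3.58.1 (R version 4.3.3) in 1 fit per organ, with T0 of each batch as its own group and Benjamini-Hochberg adjustment over all features (threshold 0.01). Differences are on the log2(value + 1) scale, which understates those of low genes. The test was checked on simulated data, where 54 to 63% of 2-fold and 22 to 42% of 1.5-fold changes passed, by comparison. A gene that did not pass is thus not shown to be unchanged. Each simulated comparison changed only a small part of the features. In roots, 40.1% of features passed at 24°C over T0 and 46% at 4°C over 24°C, so the simulated rates need not hold there. P-values measure the spread between pools of 4 seedlings. The genes, lists and comparisons were chosen with earlier results of these data known. Named genes were members with a name in the study's tables, those in the transcription factor and clock lists, the 2 unnamed IDs with the largest change in each direction and those at the limits of the rule; any other is marked. The gene IDs could not be matched to the reference at hand, so no sequences, coordinates or promoter motifs are given. Alternatives covered the T0 libraries, limits of the rule, pseudocount, filter, scale, threshold, replicate block, libraries in the fit, and leaving out each library.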

Additional observations from a re-analysis of the deposited data

Results flagged for a closer look

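Some genes had every shoot library on one side of T0 replicates 1 to 3 and every root library on the other side of root T0 by 3 h. Over all 61 genes measured in roots this held for 2 higher and 5 lower genes at 4°C, of which 0 passed limma in roots, and for 3 higher and 9 lower genes at 24°C, of which 3 and 6 passed. The values that follow cover the 21 genes singled out in the text. Among the other lower genes, named here after their values were seen, the root difference at 24°C also passed for Solyc03g111690, Solyc07g006700, Solyc08g006870, Solyc10g080600 and Solyc12g009270, with log2 differences of 1.31, 1.37, 0.98, 3.3 and 1.02. Of these, Solyc10g080600 was near 0 in roots, with 29.4, 18.9 and 21.0 at 24°C against 0.176, 8.7 and 0.215 at T0. Shoots and roots were normalised apart and come from different organs, so the difference between organs was not tested. At 24°C, PP2-A13, NYC1 and Solyc02g091700 were higher than T0 in all shoot libraries and lower in all root libraries, where the log2 differences from T0 were -2.34, -1.0 and -0.86. At 4°C, Solyc02g091700 (-0.38 in roots) and Solyc03g093410 (-0.59 in roots) were higher in shoots and lower in roots, and neither root difference passed the test (adjusted p = 0.075 and 0.0224, limma). ERF2b was lower than T0 in all shoot libraries at 4°C and higher in all root libraries (0.97 in roots, adjusted p = 0.117). Solyc00g068980 was lower in shoots in both temperatures and higher in roots by 0.22 at 4°C and 0.29 at 24°C, where neither difference passed (adjusted p = 0.111 and 0.0172). Solyc06g049050 was lower in shoots at 24°C and higher in roots at 24°C by 2.23 (adjusted p = 8.0e-07), while in roots at 4°C its log2 difference was -1.53 ± 0.12 (adjusted p = 0.000102).

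Among the 6 shoot T0 libraries of the 21 genes singled out, none was set apart by Dixon's test at the 95% level, which by chance marks about 1 in 20 groups. The 6 libraries span both batches, and a test for 1 library can miss 2 that lie apart together. In PP2-A13, T0 replicates 3 and 6 had 1137 and 1210, against 497 to 571 in the others.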

How the results depend on the processing

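The list of genes changed with the T0 libraries, the limits of the rule and the scale. Rescaling over nuclear genes gave 61 genes, of which 43 were among the 71, against 48 with T0 replicates 4 to 6 and 55 with all 6 T0 libraries. The list held 117 genes (108 lower) with all 6 T0 libraries, 326 (124 higher, 202 lower) with T0 replicates 4 to 6, 301 (29 higher, 272 lower) at 1.5-fold, 9 (1 higher, 8 lower) at 3-fold, 40 (34 lower) with a narrower window for the ratio of 4°C to 24°C (from 0.8), and 42 lower genes at a minimum mean of 200. Leaving out each of the 9 libraries gave 62 to 102 genes, 5 to 8 higher and 57 to 95 lower. The cause was not tested.

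The number of genes that passed in the direction of the rule at 30 min was 6 at 4°C, and became 3 against all 6 T0 libraries, 3 with only the 30 min and T0 replicates 4 to 6 libraries in the fit, 20 at an adjusted p under 0.05 and 2 to 9 when 1 library was left out. At 24°C it was 13, with 8 in the smaller fit and 10 to 16 when 1 library was left out. Between temperatures at 30 min, 7 genes differed, with 3 in the smaller fit, 15 at 0.05 and 2 to 10 when 1 library was left out. In roots, 12 passed at 4°C, with 6 with only the compared libraries, 20 at 0.05 and 7 to 24 when 1 library was left out. At 24°C it was 25 (20 to 27) and between temperatures 32 (26 to 30) when 1 library was left out. With a replicate block the counts were 7, 13 and 7 at 30 min (4°C, 24°C and between temperatures) and 8, 20 and 27 in roots. Pseudocount, filter and rescaling kept each of these counts within 1.5-fold. Same-numbered libraries deviated together (correlation over 0.1) in 6 of 30 shoot and 0 of 9 root pairs. Pairs of unlike number did so in 9 of 105 in shoots and 1 of 18 in roots. The best correlation was with the own number in 6 of 18 shoot and 0 of 9 root libraries. T0 replicates 4 to 6 share no number with another shoot library, so the check could not pair them. The numbers were not taken to pair the samples, but a replicate effect in shoots was not excluded. For the genes singled out, 51 of 120 results passed; in 627 alternative fits of these, 541 kept the call and 86, spread over 21 results, lost it. Of 855 alternative fits of the other 69 results, 18 passed. None reversed a called direction.

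The values hold no depth, so the precision of low genes cannot be told from counts, and with 3 libraries a group 1 pool can decide a call.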
